A study of Mus musculus with 6 samples.

Results

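The regions described here are distal stretches of chromatin that were called open in every blood sample of mice returned from simulated high altitude and in no control sample. They were chosen by the presence and absence of peaks: the peaks of 6 ATAC-seq lists on chromosomes 1 to 19 were merged where they shared 1 bp, and a merged region was kept when all 3 lists of mice in high-altitude de-acclimatization (HADA) held a peak in it, none of the 3 control lists did, and every summit lay more than 3 kb from any annotated transcript start. The rule kept 2611 of 60298 merged regions, or 8.07% of the 32374 distal ones, and these 2611 are called HADA-only distal regions or members. ATAC-seq marks open DNA with the Tn5 transposase, and its peaks outside promoters often lie at enhancers or at sites bound by CTCF. Both groups were male C57BL/6J mice, bought at 8 weeks of age per the study's methods. Control mice stayed at normal oxygen, and HADA mice spent 28 days in a hypobaric chamber and were then moved back to normal oxygen. The libraries were made from unsorted leukocytes of peripheral blood after red cell lysis per the labels, while the study's results text calls them mononuclear cells. The labels do not say whether each library came from 1 mouse or from a pool.

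An enhancer is a stretch of DNA outside the promoter that binds transcription factors and raises the activity of a gene, often one at a distance. Each type of blood cell opens its own set of enhancers, so the open distal regions of blood reflect which cells it holds as well as what those cells do. In B cells, EBF1, PAX5, E2A and the OCT factors with their partner OBF1 act at such elements, and PU.1 and the CEBP factors act at those of myeloid cells. CTCF is a zinc-finger protein that binds a long motif and, with cohesin, anchors chromatin loops. Because the blood was a mixture, fewer cells of a type and less accessibility per cell cannot be told apart in any value below.

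The sequences of 10 members are shown first, as examples of motifs whose shares are compared below. Of the motifs shown, CTCF, EBF and the octamer were more common in the members than in distal regions of all 6 lists. For PU.1, AP-1 and RUNX the direction depended on whether regions of repeated sequence were counted. Each is 81 bases of the plus strand of GRCm39, with the motif matches in capitals. The first 3 are the tallest members with a CTCF motif, and they lie nearest to Pax5, Serpinb1c and Gstp2.
Pax5, intron, chr4:44564713-44564793: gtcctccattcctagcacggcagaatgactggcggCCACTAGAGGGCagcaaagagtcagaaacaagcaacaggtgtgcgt
Serpinb1c, in an intron of Serpinb6b, chr13:33087351-33087431: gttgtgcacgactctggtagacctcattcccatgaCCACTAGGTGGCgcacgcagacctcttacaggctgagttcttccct
Gstp2, intergenic, chr19:4102141-4102221: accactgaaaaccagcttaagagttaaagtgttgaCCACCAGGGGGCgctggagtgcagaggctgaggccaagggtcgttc

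The next holds the octamer bound by OCT factors, ATGCAAAT, and was added after the values had been seen, because this motif differed most in the members' class from its share in the classes beside it.
Hmgn2-ps, intergenic, chr8:73027774-73027854: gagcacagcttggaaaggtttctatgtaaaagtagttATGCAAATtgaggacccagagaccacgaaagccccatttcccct

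The tallest members with the EBF motif, CCCNNGGGA, lie near Stk11ip, Cnr2, which encodes a cannabinoid receptor of immune cells, and Pik3cg, which encodes a phosphoinositide 3-kinase of leukocytes.
Stk11ip, exon of a non-coding transcript of the gene, chr1:75501534-75501614: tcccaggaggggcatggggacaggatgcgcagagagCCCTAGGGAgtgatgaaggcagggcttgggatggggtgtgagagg
Cnr2, intron, chr4:135627486-135627566: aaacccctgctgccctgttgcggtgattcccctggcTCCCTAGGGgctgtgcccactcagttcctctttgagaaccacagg
Pik3cg, intergenic, chr12:32262854-32262934: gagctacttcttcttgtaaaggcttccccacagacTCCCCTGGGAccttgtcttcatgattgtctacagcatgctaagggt

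The last 3 are the tallest members with a RUNX motif (TGTGGTT), a PU.1 motif (GAGGAAGT) and an AP-1 motif (TGANTCA). They lie near Pik3ap1, an adaptor of B cell receptor signalling, Syk, the kinase of the same receptor, and Cxcr5, the chemokine receptor that guides B cells into follicles.
Pik3ap1, intron, chr19:41317336-41317416: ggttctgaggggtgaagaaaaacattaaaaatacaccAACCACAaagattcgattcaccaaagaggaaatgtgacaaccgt
Syk, intron, chr13:52754308-52754388: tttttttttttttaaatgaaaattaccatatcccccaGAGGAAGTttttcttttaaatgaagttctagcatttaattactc
Cxcr5, intergenic, chr9:44482558-44482638: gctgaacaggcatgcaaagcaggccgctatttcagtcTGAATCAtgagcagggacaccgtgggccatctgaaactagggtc

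The lists held 39769, 39176 and 32533 peaks on these chromosomes in control 1 to 3 and 42911, 42500 and 44102 in HADA 1 to 3. Depth is known only as the background, the number of fragments that overlap a base by chance over the whole genome, which was 1.69, 2.05 and 1.83 in control 1 to 3. It was 2.34, 1.99 and 2.27 in HADA 1 to 3, so the background of HADA 2 was no higher than that of control 2. The background stands for depth only if all lists were called with the same options, which are not given. Members made up 12.9%, 12.9% and 12.1% of the distal peaks of HADA 1, 2 and 3. The mirror set, distal regions in all control lists and no HADA list, held 726 regions, and 8312 distal regions had a peak in all 6 lists. These counts depended on the length of the lists: when each list was cut to its 32533 strongest peaks, the length of the shortest list, the HADA-only distal regions numbered 1698 and the control-only ones 1634, and 1192 of the 2611 members were kept. Without control 1 the rule gave 4139 regions. The control-only distal regions numbered 884 to 1486 with 1 library left out, the highest without control 3.

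The members were of moderate height. Their median summit pileup, the number of fragments over the summit, was 22 in HADA 1, 20 in HADA 2 and 21 in HADA 3, against 27, 24 and 23 for all distal peaks of the same libraries. Over the library background this was 9.40, 10.1 and 9.24 times, against 11.5, 12.1 and 10.1 times for all distal peaks. Summit pileups of single members ran from 8 to 348. The 3 HADA libraries gave close heights for a member: the highest library exceeded the lowest by a median of 1.35 times, by less than 2 times for 2536 members (97.1%) and by 2.86 times at most. The median SD of the log2 height over the HADA libraries was 0.23 (n = 3).

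No height is known for a member in a control library, because a peak list holds only what was called. The smallest summit pileup that could be called over the library background was 7, 8 and 8 in control 1 to 3, or 4.15, 3.90 and 4.37 times the background. At the height the members had in HADA, 2610, 2611 and 2610 of the 2611 would have passed the p-value limit behind these values in control 1, 2 and 3. That count scaled the local background from HADA and was nearly fixed by the rule. Every member had been called in all HADA lists, whose own limits were 3.85, 4.02 and 3.52 times the background in HADA 1 to 3. The count therefore does not say why the control lists held no peak. The width a caller also asks of a peak is not part of that limit, and signal just under it cannot be told from none.

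How far the choice carried over to libraries it had not used was described by choosing regions with the same rule on 2 HADA and 2 control libraries, for all 9 choices of the pair left out. Between 78.3% and 86.0% of the regions so chosen had a peak in the HADA library left out. In the control library left out the share was 33.2% to 33.7% for control 1, 10.8% to 11.9% for control 2 and 3.94% to 4.604% for control 3. The control libraries were thus unlike each other at these regions, and control 1 held a peak in the most. Distal regions found in all 3 HADA lists and in 1 control list numbered 1987, and those in 2 control lists 2353. Carry-over between HADA lists was also common elsewhere. With all 3 control lists, 8312 distal regions were in 3 HADA lists and 1217 in 2, against 2611 and 1952 with no control list. The same share over all distal regions was not computed.

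The tallest members found once in the genome were much higher than that limit. The highest lay in an intron of a gene that is not protein-coding, 9978 bp from the nearest protein-coding start, that of Zfp239, with summit pileups of 221, 195 and 178 in HADA 1 to 3, or 94.4, 97.9 and 78.3 times the background. The next, in an intron of Pik3ap1 with the RUNX motif printed above, had 181, 171 and 192. A region 9305 bp from the start of Cxcr5, with the AP-1 motif printed above, had 148, 117 and 143 in the 3 libraries. All 3 lay at least 13.4 times above the highest control limit in their lowest HADA library. The other 7 of the 10 tallest lay nearest to Rps15a, Supt4a, Cyth1, Rbfox1, Mrpl40, Stk11ip and Mknk2, with values between 55.9 and 81.4 times the background.

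**Figure D1:**
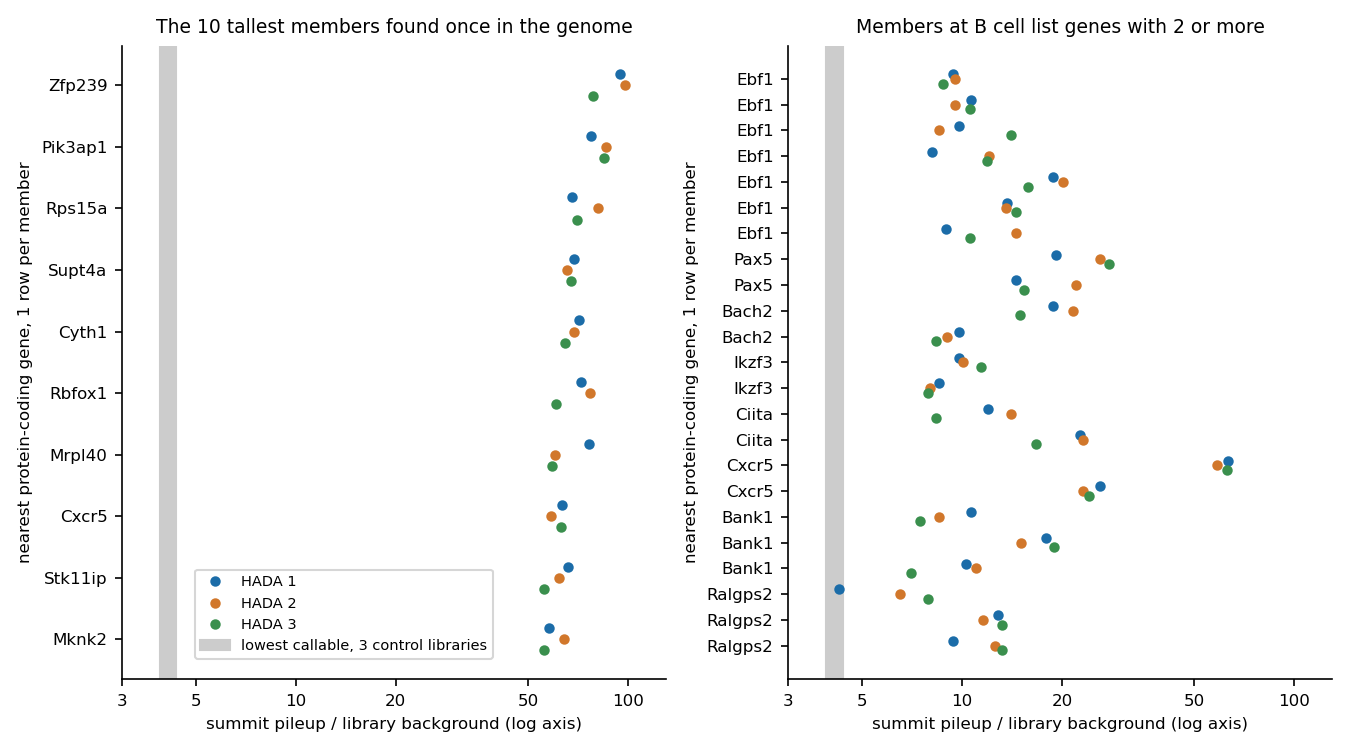
Summit pileup over library background (log axis) in HADA 1, 2 and 3 for the 10 tallest single-copy members (left) and for the 23 members at B cell list genes with 2 or more (right), 1 row per member. The grey band spans the lowest callable heights of the 3 control libraries, 3.90 to 4.37; the tallest members sit above 55 and most B cell list members between 7 and 30.

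Members lay more often inside genes and were more often unique in sequence than the other distal regions. Of the 2611, 1717 (65.8%) had their summit in an intron, 188 (7.20%) in an exon and 706 (27.04%) between genes, against 58.9%, 5.63% and 35.5% of all distal regions. The median distance to the nearest protein-coding start was 25.3 kb against 26.95 kb, and 14.1% of members lay more than 100 kb away against 20.04%. The 50 bases at the summit occurred once in the genome for 2544 members (97.4%), against 76.0% of control-only distal regions and 78.6% of distal regions in all 6 lists. Classes close to the members were also mostly unique. They occurred once for 1873 of 1952 distal regions in 2 HADA lists and no control list. Where 1 and 2 control lists joined all HADA lists, the counts were 1924 of 1987 and 2216 of 2353. Only 67 members had repeated summit sequence, and whether their reads could be placed on 1 copy was not tested. The tallest of these were a region near Tcstv3 with 1562 copies and one in Dop1b with 1568. The median width was 656 bp against 1049 bp for distal regions in all 6 lists. GC content within 100 bp of the summit differed little, with medians of 47.8% in members, 46.8% in control-only and 47.3% in shared distal regions, and the mean number of CpG was 2.76, 2.42 and 3.05.

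The members were spread over the genome. Their share of the distal regions ran from 6.65% on chromosome 8 to 10.7% on chromosome 19. Another member lay within 20 kb of 439 of them (16.8%) and within 50 kb of 823 (31.5%). Chains of members with gaps of at most 20 kb held at most 3 members, and 19 chains of 3 were found, among them chains at Foxo1, Gse1, Serp2, Cd83, a marker of activated antigen-presenting cells, and Jun, a subunit of AP-1. At the 3 kb limit of the rule, the members just inside lay 3005, 3007 and 3009 bp from a start (near Gfi1, Fam43a and Cd2), and regions just outside lay 2990, 2994 and 3000 bp away.

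Sequence was searched for 20 motifs on both strands within 100 bp of the summit, and shares of members are given beside those of other distal regions as a description with no test, since regions are not replicates. The CTCF motif, searched as a 12-base consensus, stood in 53 members (2.03%, exact 95% interval 1.52% to 2.65%, counting error only). It stood in 33 of 8312 distal regions in all 6 lists (0.397%), in 0 of 726 control-only distal regions, which allows a share of up to 0.413%, and in 0.988% of all distal regions. At a point 1 kb from the members' summits the share was 0.0383%. The CTCF members included those printed above near Pax5, with pileups of 45, 52 and 63 in HADA 1 to 3, near Serpinb1c with 39, 34 and 34, and near Gstp2 with 33, 29 and 33. CTCF members were shorter than the rest, with medians of 8.12, 8.54 and 7.48 times the background in HADA 1 to 3 against 9.40, 10.1 and 9.24 for members without the motif.

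Motifs of B-lineage factors were also more common in the members than in control-only, shared or all distal regions. The octamer ATGCAAAT stood in 106 members (4.06%), against 1.10% of control-only, 2.32% of shared and 2.03% of all distal regions. Members with the octamer were taller than the rest, with medians of 11.5, 12.1 and 11.2 times the background. The EBF motif stood in 133 members (5.09%), against 2.48%, 3.27% and 3.93%, and the E-box of E2A (CAGCTG) in 414 (15.9%), against 11.6%, 11.8% and 12.4%. At least 1 of these 3 was present in 602 members (23.1%), in 14.9% of control-only, 16.7% of shared and 17.6% of all distal regions. They seldom met in 1 region: 5 members held both EBF and OCT motifs, and 26 held both EBF and E2A.

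Of the 20 motifs, 17 were more common in members than in distal regions of all 6 lists, but over single-copy regions, which leave out far more of the latter, 10 were. The 7 that turned were AP-1, GATA, IRF, KLF, NRF2, PU.1 and RUNX, and PU.1, a factor of myeloid and B cells, went from 6.59% against 5.67% to 6.60% against 6.95%. CTCF, the octamer, EBF and E2A kept their direction, with EBF at 5.03% against 2.89% and E2A at 15.8% against 13.03% over single-copy regions. The CEBP motif (TTGCNNAA), bound by factors of the myeloid lineage, was less common in members in both counts. It stood in 212 members (8.12%), 17.4% of control-only, 10.9% of shared and 10.2% of all distal regions, and in 8.01% of windows 1 kb from the members. The AP-1 motif stood in 6.24% of members, 10.1% of control-only and 6.12% of all distal regions. The NRF2 motif (TGACNNNGC), the antioxidant response element of the factor the study followed, stood in 7.74% of members, 10.1% of control-only and 7.51% of all distal regions, and the HIF motif (ACGTGC), bound by the factors of the oxygen response, in 3.06%, 2.48% and 2.24%. The NF-E2 motif (GCTGAGTCA), whose last 7 letters are an AP-1 match, stood in 0.383%, 1.24% and 0.408%, and all 10 members with it were also counted for AP-1.

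RUNX stood in 9.35% of members and 8.58% of all distal regions, PU.1 in 6.59% and 4.76%, and IRF (GAAANNGAA) in 7.93% and 6.98%. The shares in control-only distal regions were 5.51%, 4.55% and 3.99%. For the remaining motifs, the members and all distal regions gave 0.536% and 0.432% for ETS (CCGGAAGT), 0.383% and 0.324% for EGR (GCGTGGGNG), 3.68% and 2.90% for TCF7 (CTTTGAT), and 8.54% and 8.24% for the letters AGATAA bound by GATA factors. They gave 1.15% and 0.911% for T-box (AGGTGTGA), 2.57% and 2.10% for NF-kB (GGANNTTCC), 2.57% and 2.18% for KLF (GGGTGTGG), and 7.28% and 6.63% for the glucocorticoid receptor (ACANNNTGT). None of the 20 motifs stood in 874 members (33.5%).

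**Figure D2:**
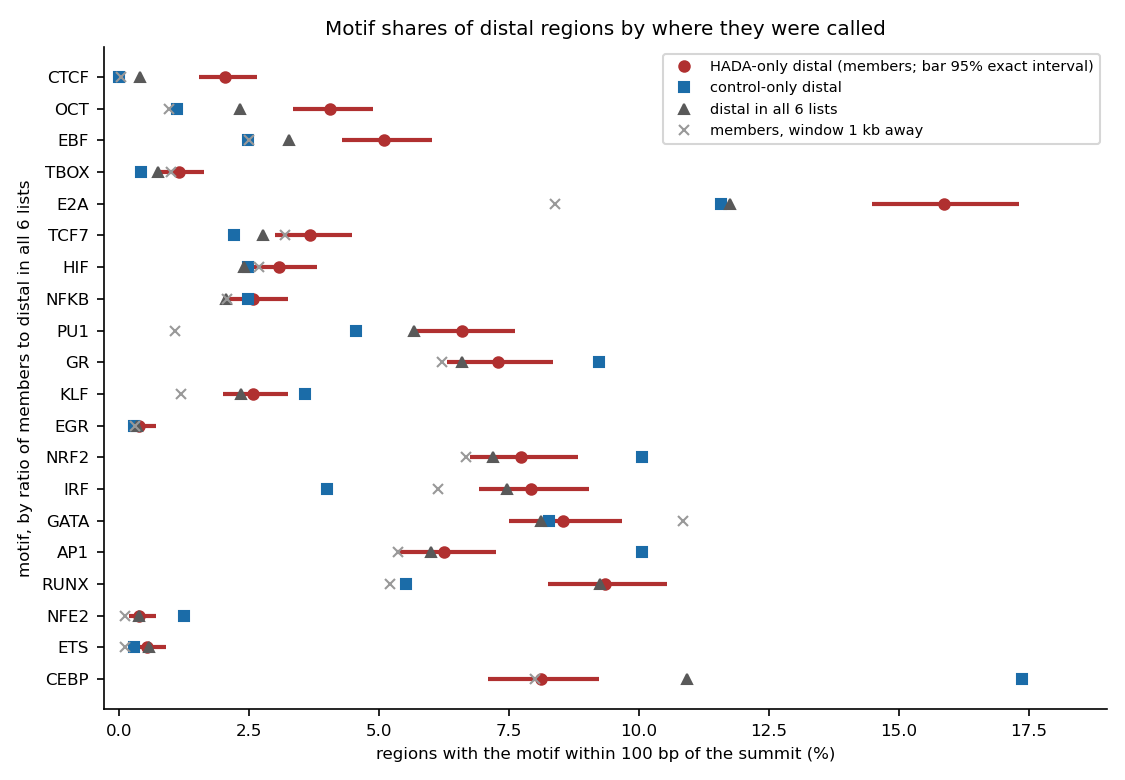
Share of regions (%) with each of 20 motifs within 100 bp of the summit, in the 2611 HADA-only distal regions (circles, bars exact 95% intervals for counting error), 726 control-only distal regions (squares), 8312 distal regions in all 6 lists (triangles) and windows 1 kb from the members (crosses). CTCF, OCT and EBF lead in the ratio of members to shared regions, and CEBP, at 8.12% against 17.4% of control-only regions, stands last.

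Without a motif list, all 8-mers present in at least 40 single-copy members were ranked by the ratio of their share in those 2544 members to that in 6533 single-copy distal regions in all 6 lists. Of 1910 such 8-mers, the first was TATGCAAA, an octamer sequence shifted by 1 base, in 77 members (3.03%) against 0.980%, a ratio of 3.09. The octamer ATGCAAAT itself had 4.17% against 2.02%, a ratio of 2.06.

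Single-copy distal regions were then ordered by how many lists of each group held them. The CTCF share was 2.65% in regions of 1 HADA list and no control list, 2.62% in those of 2 HADA lists and 2.08% in the members. It was 1.82% and 1.26% where 1 and 2 control lists joined all HADA lists, 0.505% in all 6 lists, and 0 in 552 control-only regions, which allows up to 0.543%. The octamer was highest in the members' class alone, at 4.17%, against 2.04% and 2.14% in regions of 1 and 2 HADA lists, 2.18% and 2.53% with 1 and 2 control lists added, and 2.02% in all 6. EBF stood at 5.03% in the members, 4.86% in regions of 2 HADA lists, and 4.42% and 4.24% with 1 and 2 control lists added. For E2A the same classes gave 15.8%, 14.7%, 15.5% and 15.1%, so neither stood apart in the members as the octamer did. The CEBP share was 8.12%, 8.06% and 8.14% in regions of 1, 2 and 3 HADA lists without control. It was 7.69% and 8.12% with 1 and 2 control lists added, 10.9% in all 6 lists and 19.2% in control-only regions.

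**Figure D3:**
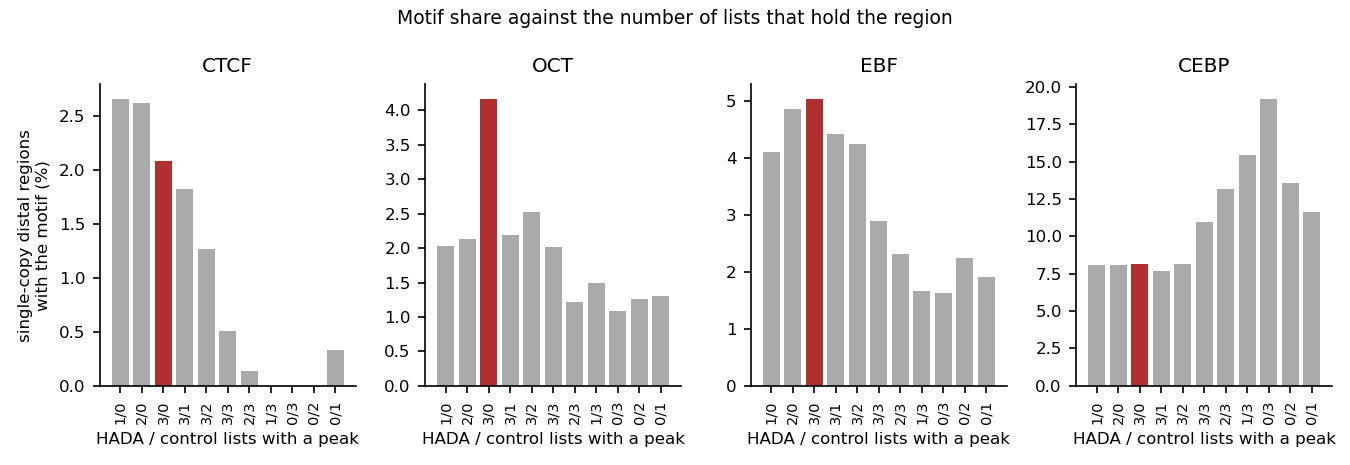
Share (%) of single-copy distal regions with the CTCF, OCT, EBF and CEBP motif, by the number of HADA and control lists that hold the region (HADA/control); the class of the members, 3/0, is red. The CTCF bars fall from 2.65% at 1/0 to 0 at 0/3, the OCT bar peaks at 4.17% in the members, and the CEBP bars rise to 19.2% at 0/3.

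The libraries were also compared over distal peaks outside the members and the control-only regions, which numbered between 13910 and 18897 per library. Regions held by 1 or 2 lists of a single group were still among them. Among them the CTCF motif stood in 0.643%, 0.393% and 0.431% of those of control 1 to 3 and in 0.970%, 1.00% and 1.09% of those of HADA 1 to 3. The HADA libraries lay above the control libraries, with means of 1.02% ± 0.0621 and 0.489% ± 0.134 (SD, n = 3 each; two-sided exact permutation p = 0.1, adjusted p = 0.167 over 20 motifs). A p of 0.1 is the smallest that 3 libraries against 3 can give, so no motif could pass 0.05. The E2A motif was at 12.9% ± 0.357 in HADA and 11.6% ± 0.600 in control libraries, and the groups did not overlap (n = 3 each, exact permutation p = 0.1, adjusted p = 0.167). CEBP was at 9.69% ± 0.301 and 10.97% ± 0.464, lower in every HADA library than in every control library (n = 3 each, exact permutation p = 0.1, adjusted p = 0.167). The groups overlapped for the octamer, at 2.15%, 2.00% and 2.11% in HADA 1 to 3 against 2.00%, 1.90% and 1.47% in control 1 to 3, and for EBF, at 3.68% ± 0.0838 and 3.45% ± 0.428 (n = 3 each, exact permutation p = 0.2 and 0.4). Of the 20 motifs, 11 were higher and 1 was lower in every HADA library than in every control library. When peaks were kept only in regions held by at least 1 list of each group, a restriction added after the data had been seen, these counts were 6 and 1. The CTCF shares were then 0.688%, 0.471% and 0.475% in control 1 to 3 and 0.689%, 0.804% and 0.855% in HADA 1 to 3, so HADA 1 and control 1 stood almost level and the difference of the means fell from 0.532 to 0.238 percentage points. The E2A shares of control 1 and HADA 1, 12.52% and 12.53%, were likewise almost level. CEBP had means of 9.98% ± 0.321 (HADA) and 10.7% ± 0.361 (control; SD, n = 3 each), with HADA 3 and control 1 almost level at 10.34% and 10.38%.

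Each member was assigned to the protein-coding gene with the nearest transcript start, which need not be the gene it acts on. The 2611 members fell to 1962 genes, of which 1529 had 1 member, 433 had 2 or more, 139 had 3 or more and 17 had 5 or more. For comparison, the 32374 distal regions fell to 10342 genes. Counts are read beside the number of distal regions of the same gene, since a gene in a wide gene-poor interval collects more of both.

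Gse1, which encodes a protein of histone deacetylase complexes, had the most members, 9 of its 28 distal regions, all in introns of the gene. The one nearest to a start, 6608 bp away, had summit pileups of 35, 32 and 39 in HADA 1 to 3, and the one with the lowest height in any single library had 11, 17 and 21. In lists cut to equal length Gse1 held 2 members and Zfp36l1 4, and when only peaks with a −log10 q of 5 or more were used they held 5 and 4. Zfp36l1, an RNA-binding protein that speeds the decay of messages, had 7 of 24. They lay between 43686 and 387910 bp from its start, 3 of them in introns of Rad51b, and the tallest had 87, 100 and 93.

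Ebf1, a transcription factor needed for the B lineage, had 7 of 29, and Clint1, a clathrin adaptor and its neighbour on chromosome 11, had 6 of 19. Of the Ebf1 members, 4 lay in introns of the gene. The tallest, 390893 bp from its start and with an octamer, had pileups of 44, 40 and 36 in HADA 1 to 3, or 18.8, 20.1 and 15.8 times the background. Another in an intron, 64836 bp from the start and with an E2A motif, had 22, 19 and 20. All 6 members assigned to Clint1 lay 305556 to 527903 bp from its start, on the side of Ebf1, so the stretch from Ebf1 to Clint1 held 13 of the 2611. Ebf1 held 6 members in lists cut to equal length, and 12 without control 1.

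Btg1, a brake on lymphocyte division, had 6 of 36 and Foxp1, a forkhead factor of lymphocytes, had 6 of 51. The tallest Foxp1 member, in an intron with an octamer, had 57, 51 and 48. Another 11 genes had 5 members each, and the 9 of them with the highest share of the gene's distal regions were Mllt3, a reader of acetylated histones (of 10 distal regions), Prlr, the prolactin receptor (of 10), Ldlrad3 (of 11), Serp2 (of 11), the predicted gene Gm58497 (of 18), Foxo1, a forkhead factor of lymphocyte development (of 21), the pseudokinase Trib2 (of 21), Akap13, a scaffold protein (of 26), and Zeb2, a zinc-finger repressor (of 30). The other 2 were Myc, a growth regulator (of 34), and Lpp (of 38). One of the 5 members at Prlr is among the repeated ones, with 8707 copies of its summit sequence. The Foxo1 members had pileups from 14 to 35, and 3 of them formed 1 of the chains of members. The tallest at Akap13, in an intron with an AP-1 motif, had 52, 38 and 42 in HADA 1 to 3.

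**Figure D4:**
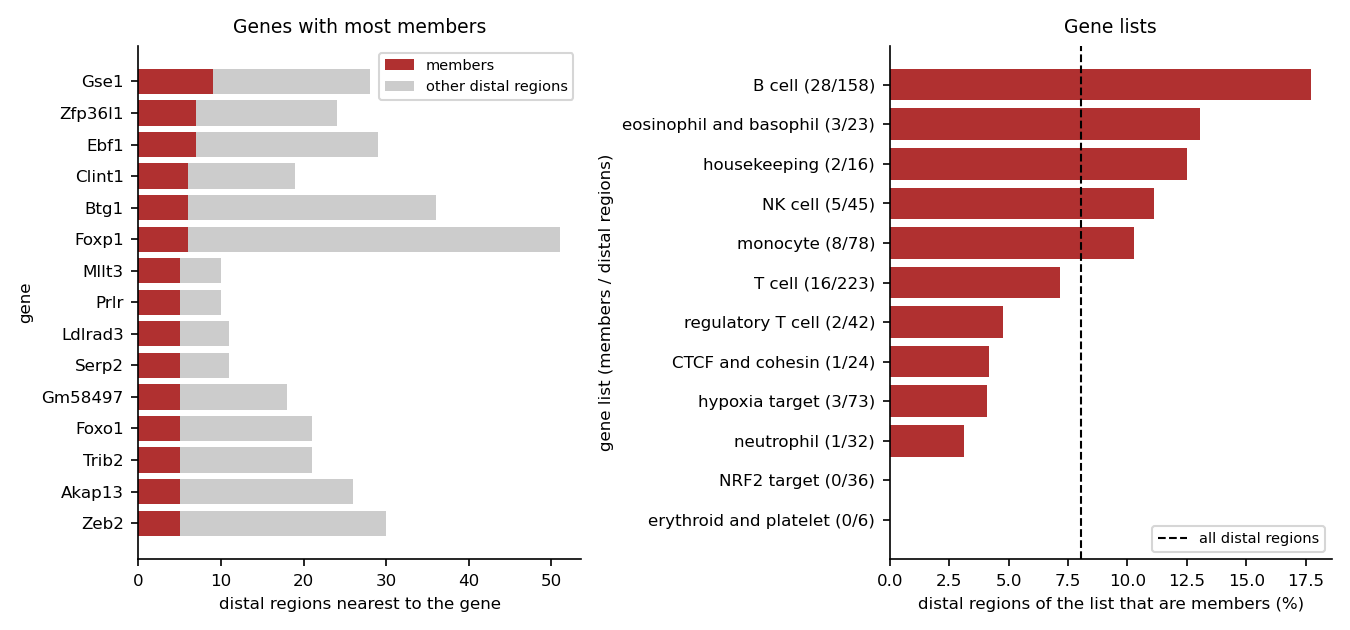
Left, 15 of the 17 genes with 5 or more members (Myc and Lpp, with 5 each and lower shares, are not drawn), with members in red and other distal regions nearest to the gene in grey. Right, the share (%) of the distal regions of each of 12 gene lists that were members, with the count in brackets and the share over all distal regions, 8.07%, as a dashed line; the B cell list stands at 17.7% and the NRF2 target list at 0.

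Among 12 lists of genes, the B cell list stood highest. The lists were chosen with earlier results of these data known, so this rank is a description. Its genes took 28 members, 7 of them at Ebf1, which were 17.7% of their 158 distal regions, against 8.07% over all distal regions. They took 0 of the 726 control-only distal regions, against 0.488% of all distal regions. Of its 29 genes on these chromosomes, 13 had a member and 8 had 2 or more. Besides Ebf1 these were Bank1 and Ralgps2 with 3 each, and Pax5, Bach2, Ikzf3, Cxcr5 and Ciita with 2 each. Pax5, the factor that holds B cell identity, had both in introns: the one with the CTCF motif printed above reached 19.2, 26.1 and 27.7 times the background in HADA 1 to 3, and the other, 31401 bp from a start, reached 14.5, 22.1 and 15.4.

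Both Cxcr5 members lay between genes and within 3 kb of each other, and the second, 11599 bp from the start and with an octamer and a CEBP match, had pileups of 61, 46 and 55. Bach2, a repressor in lymphocytes, had 1 member with 44, 43 and 34 and another with 23, 18 and 19. Ciita, the master activator of MHC class II genes, had 1 member 6315 bp from a start with 53, 46 and 38 and 1 with an EBF motif with 28, 28 and 19. The tallest at Bank1, a B cell scaffold protein, had 42, 30 and 43. Ikzf3, the lymphocyte factor Aiolos, had members with 23, 20 and 26 and with 20, 16 and 18. One of the Ralgps2 members had 10, 13 and 18, and in HADA 1 it reached 4.27 times the background, inside the range of the control calling limits. The other B cell genes with 1 member were Blk, Blnk, Cd72, Cr2 and Mef2c.

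The T cell list had 16 members in 223 distal regions (7.17%), below the share over all distal regions. They included 4 at Tox, a factor of T cell development and exhaustion, 2 each at Bcl11b and Il7r, and 2 at Prkcq, the kinase of T cell receptor signalling. The regulatory T cell list had 2 in 42 (4.76%), at Icos and Nrp1, and its defining gene Foxp3, on the X chromosome, was not covered. The NK cell list had 5 in 45 (11.1%), with 2 at Il2rb, and the monocyte list had 8 in 78 (10.3%), with 3 at Klf4 and 2 at Irf8. The neutrophil list had 1 in 32 (3.13%), at Csf3r, and the eosinophil and basophil list 3 in 23 (13.04%), with 2 at Il5ra.

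No gene of the NRF2 target list had a member among its 36 distal regions, and none of the erythroid and platelet list among 6. The hypoxia target list had 3 in 73 (4.11%), of which 2 lay at Ndrg1, a gene induced by low oxygen, and 1 at Pfkfb3. The CTCF and cohesin list had 1 in 24 (4.17%), at Pds5b, and the housekeeping list 2 in 16 (12.5%), both at Ywhaz. With so few regions these shares move by several percent with 1 member, and no list but that of B cells and that of T cells had more than 8.

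Promoters of the marker genes, which the rule left out, differed between the groups for some lists and overlapped for others. The sums below are in units of the background, with no centring, and for the housekeeping list they overlapped, at 2418, 1633 and 2564 in control 1 to 3 and 2605, 2457 and 2104 in HADA 1 to 3. Within that list Tbp had no peak in any control library and 62.4, 61.3 and 48.4 in HADA 1 to 3. Tubb5 had none in control 2 and HADA 3. Each peak was given only to the gene with the nearest protein-coding start, so a gene without a peak here need not have a closed promoter. The height of the tallest promoter peak summed over the B cell list was 1283, 915 and 836 times the background in control 1 to 3 and 2371, 2458 and 2180 in HADA 1 to 3, so the groups did not overlap. All 29 genes had a promoter peak in every HADA library, and 28, 29 and 20 had one in control 1 to 3. The sum over the T cell list was 998, 672 and 732 in control 1 to 3 and 1363, 1402 and 1279 in HADA 1 to 3. Cd8a alone of its 30 genes had no promoter peak in any library. Over the neutrophil list it was 818, 602 and 1295 in control 1 to 3 against 573, 499 and 428 in HADA 1 to 3, with Camp, Fpr2 and Ngp without a promoter peak in any. For the regulatory T cell list, of which 2 of 13 genes (Itgae and Tnfrsf4) had no promoter peak, it was 161, 120 and 96.2 against 362, 305 and 343. Lrrc32 and Tnfrsf9 carried much of that sum, Lrrc32 with 24.3, 14.6 and no peak in control 1 to 3 against 91.9, 85.9 and 77.8 in HADA 1 to 3, and Tnfrsf9 with 11.3, 12.2 and 6.01 against 90.6, 12.05 and 82.7. The tall Tnfrsf9 values of HADA 1 and 3 came from another peak near the gene. At its promoter region in all 6 lists Tnfrsf9 had 11.3, 8.28 and 6.01 in control 1 to 3 and 12.8, 11.6 and 13.6 in HADA 1 to 3. That difference did not pass the test (log2 difference 0.22 ± 0.20, SE, limma adjusted p = 0.404). Of 14 erythroid and platelet genes, 6 had no promoter peak in any library, Hba-a1, Klf1 and Ppbp among them. The monocyte list overlapped between groups, at 817, 589 and 763 against 669, 613 and 555, and so did the NK cell list, at 316, 197 and 281 against 245, 271 and 263. The part of the cell mixture in the members was not tested.

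The regions with a peak in all 6 lists gave a measure that had not chosen the members. Their log2 summit pileups, centred on the median region of each library, were compared between the groups with limma, and 4030 of 23013 were higher in HADA (17.5%) and 5395 lower (23.4%) at a Benjamini-Hochberg adjusted p under 0.05. With pileups divided by the background and not centred, the split was 7310 higher and 4010 lower, since the median region then lay 0.35 higher on the log2 scale in HADA, and differences below are relative to the median region. Of 1704 shared distal regions within 50 kb of a member, 429 (25.2%) were higher and 427 (25.1%) lower. Of the 6608 shared distal regions farther away, 769 (11.6%) were higher and 3081 (46.6%) lower. The median log2 difference was 0.03 near members and -0.79 farther away. Over regions with a summit sequence found once, 1552 near members and 4981 farther away, it was 0.10 and -0.42, and 26.8% and 14.9% were called higher.

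The calls were sensitive to single libraries, and 97 of the 1704 (5.69%) were called higher without HADA 2, against 2.95% of all shared distal regions. By library, the median centred log2 pileup of the shared distal regions near members was -0.60, -0.61 and -0.79 in control 1 to 3 and -0.53, -0.52 and -0.59 in HADA 1 to 3. The HADA libraries lay above the control libraries by less than the spread of the control libraries. For those farther from members the medians were -0.82, -0.46 and -0.79 in control 1 to 3 and -1.23, -1.22 and -1.17 in HADA 1 to 3, so the groups were well apart there and HADA was lower.

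Promoters of genes that held members were called higher in HADA somewhat more often than other promoters in the centred comparison, a difference that was not tested. Of 1637 promoter regions of genes with 1 or more members, 385 (23.5%) were higher. Among 142 promoter regions in all 6 lists of genes with 3 or more members, 54 (38.03%) were higher and 8 (5.63%) lower. Among 9301 promoter regions of genes with no member, 1629 (17.5%) were higher and 761 (8.18%) lower. For genes with 3 or more members and with none, the shares called higher were 58.5% and 35.1% with pileups divided by the background, and 7.04% (10 of 142) and 1.97% without HADA 2. By the rank of the fold over local background they were 7.04% (10 of 142) and 6.29%, and 6.05% for genes with 1 or more members, so the excess was not seen there. For Ebf1 the promoter had peaks of 26.7 and 18.5 times the background in control 1 and 2, none in control 3, and 74.8, 87.4 and 72.6 in HADA 1 to 3. The Pax5 promoter had 30.8, 16.1 and 7.10 in control 1 to 3 and 74.8, 97.4 and 70.4 in HADA 1 to 3, a log2 difference of 2.00 ± 0.41 (SE; limma adjusted p = 0.0121). The HADA values of both genes lay above the control values without overlap.

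Where a gene had several promoter regions in all 6 lists, the one with the highest mean was used. Of the other B cell genes with 2 or more members, the promoters of Cxcr5 (log2 difference 1.46 ± 0.32, SE), Bach2 (1.501 ± 0.37), Ralgps2 (1.13 ± 0.33), Ikzf3 (0.99 ± 0.25) and Bank1 (0.69 ± 0.21) were higher in HADA, with limma adjusted p between 0.0143 and 0.0334. The Cxcr5 value is that of the region at chr9:44437188-44438406. The region at another start of the gene, chr9:44473606-44474721, stood higher in the control libraries, with 61.02, 63.3 and 133.9 times the background in control 1 to 3, 27.4 in HADA 1 and no peak in HADA 2 and 3. Over the B cell list, 16 of 20 promoters in all 6 lists were higher and 0 lower. For the T cell list it was 8 higher and 1 lower of 24, for the regulatory T cell list 1 and 0 of 5, for the monocyte list 0 and 9 of 11, and for the neutrophil list 0 and 9 of 13. With pileups divided by the background the counts higher and lower were 18 and 0 for B cells, 14 and 1 for T cells, 2 and 5 for monocytes and 0 and 8 for neutrophils. When the rank of the fold over local background was compared instead, they fell to 1 and 0, 1 and 0, 0 and 1, and 1 and 0, so the neutrophil direction was lost. The B cell count was 9, 5 and 8 of 20 without HADA 1, 2 and 3. The T cell count higher was then 6, 3 and 4, the regulatory T cell count 0 each time, and the monocyte count lower 6, 5 and 6.

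Among the genes with most members, the promoters of Foxp1 (1.16 ± 0.17, SE, limma adjusted p = 0.00867), Foxo1 (0.95 ± 0.18), Trib2 (1.39 ± 0.33), Mllt3 (0.89 ± 0.29), Akap13 (0.83 ± 0.21) and Ldlrad3 (0.75 ± 0.20) were higher in HADA on the log2 scale. At Foxp1 the promoter stood at 26.1, 23.9 and 18.03 times the background in control 1 to 3 and at 65.0, 65.8 and 67.3 in HADA 1 to 3. Of the 7 regions at Foxp1 starts with a peak in all 6 lists, this one had the largest difference. Another, chr6:99411894-99412657, had 34.4, 26.8 and 37.2 in control 1 to 3 against 33.8, 24.6 and 23.3 in HADA 1 to 3. At Akap13, too, a region at another start, chr7:75349400-75349962, was not higher, with 27.3, 22.9 and 38.8 in control 1 to 3 against 23.9, 17.6 and 15.8 in HADA 1 to 3. The Clint1 promoter was lower, at 71.7, 46.7 and 72.7 in control 1 to 3 against 52.6, 46.2 and 47.1 in HADA 1 to 3 (log2 difference -0.76 ± 0.20, limma adjusted p = 0.0208), although 6 members were assigned to it. Without centring it lay at -0.36 and did not pass the test (limma adjusted p = 0.305). Of the 13 promoters called here and for the B cell genes above, 11 lost the call without HADA 2 and 8 each without HADA 1 or HADA 3, with adjusted p up to 0.119. With the replicate number as a block, Bank1 alone lost the call (limma adjusted p = 0.0555). By the rank of the fold, 12 of the 13 lost the call, with Ldlrad3 (limma adjusted p = 0.0317) the exception, and the difference was below 0 at Foxo1, Mllt3 and Ikzf3. The promoters of Gse1 (0.27 ± 0.19, limma adjusted p = 0.275), Zfp36l1 (-0.19 ± 0.19, limma adjusted p = 0.430), Btg1 (-0.35 ± 0.22, limma adjusted p = 0.236) and Zeb2 (-0.34 ± 0.22, limma adjusted p = 0.239) did not pass the test. Without centring they lay at 0.66 (Gse1, limma adjusted p = 0.0545), 0.20, 0.05 and 0.06. The Prlr promoter had a peak in all 3 HADA lists, of 9.83, 9.04 and 10.99 times the background, and in no control list.

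**Figure D5:**
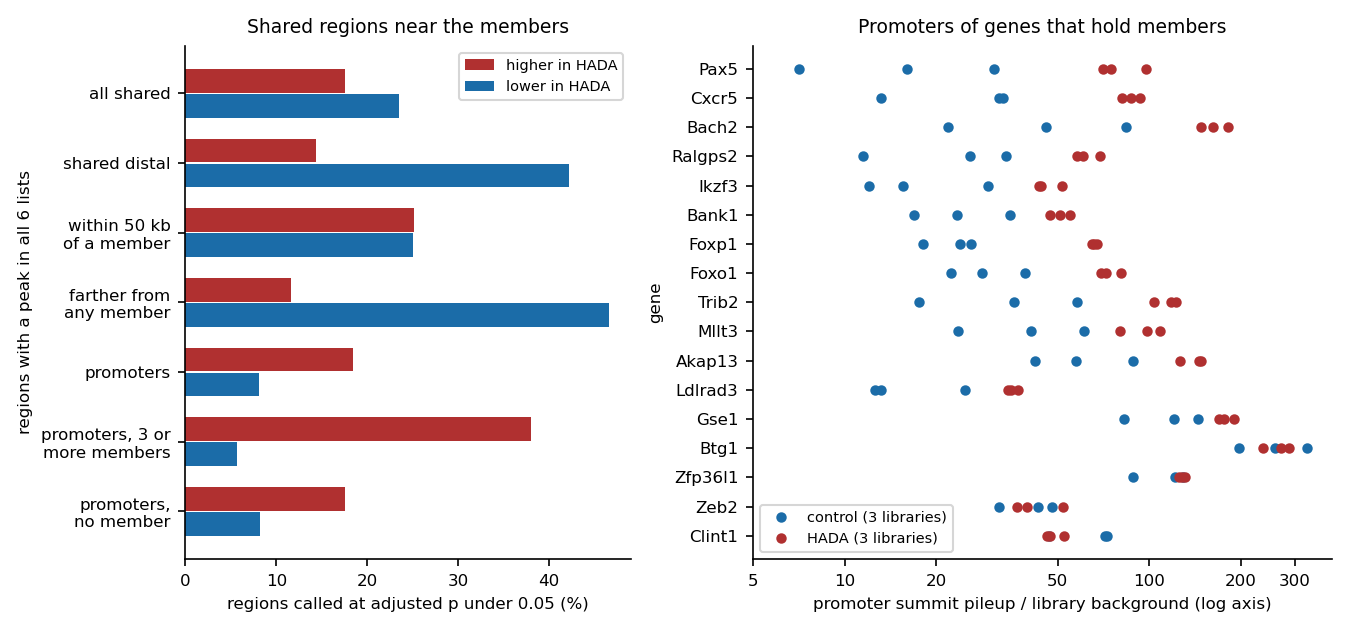
Left, share (%) of regions with a peak in all 6 lists that were called higher or lower in HADA (limma, adjusted p under 0.05), for all of them and for those near members; 25.2% of shared distal regions within 50 kb of a member were higher, against 11.6% of those farther away. Right, promoter summit pileup over library background (log axis) in 3 control and 3 HADA libraries for genes that hold members, 1 region per gene, with the groups apart at Pax5 and at the Cxcr5 region drawn (another Cxcr5 start, not drawn, stood higher in control) and overlapping at Btg1, Zfp36l1 and Zeb2.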

How the data were processed

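The 6 deposited peak lists, 3 control and 3 HADA per the labels, are described by the authors and the submitters' processing notes as reads checked with FastQC, trimmed with Trimmomatic, aligned to GRCm39 with Bowtie2, freed of duplicates with Picard and called with MACS2, by the peak names 1 list per library. Options, versions and any shift for the Tn5 insertion are not given in the sources used here. The deposited columns hold a score, the fold enrichment of the summit, the p-value and the q-value on a −log10 scale, and the offset of the summit from the peak start.

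The members and gene lists were chosen with earlier results of these data known. The summit pileup and local background were solved from the deposited fold and −log10 p-value, which succeeded for 100% of peaks in every library; the steps were tested on simulated data. Heights are pileup over the genome-wide background of the library. Total reads were not analysed here, so depth is known only through that background, and intervals cover counting error only. Genes and starts were those of GENCODE vM39. Genomic copies are exact matches of the 50 bases at the summit; the genome used here does not mark repeats, so the planned repeat share was not computed.

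Regions with a peak in all 6 lists were compared with limma 3.58.1 (R 4.3.3) and Benjamini-Hochberg adjustment, and shares per library by a two-sided exact permutation test; other steps used Python 3.11.15. The p-values measure the spread between libraries, which may be technical where libraries did not come from separate mice. Named genes were the 15 with most members, list genes with 2 or more members, the 10 tallest single-copy members, and the tallest members with a CTCF, EBF, RUNX, PU.1 or AP-1 motif. Names beyond that rule were chosen after their values were seen. Alternatives were list cutoffs, list length, merging, distance limits, motif windows, scaling and leaving out libraries.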

Additional observations from a re-analysis of the deposited data

How the results depend on the processing

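The 2611 HADA-only distal regions became 1698 in lists cut to equal length (1192 kept) and 1266 at more than 10 kb from a start, and 2734 to 4139 when 1 library was left out, the highest without control 1. The CTCF share was 1.41%, 1.501% and, with the motif within 50 bp, 0.383%, and 5.67% with 1 mismatch, while its ratio to other distal regions, 2.26, fell to 1.34 with 1 mismatch and was 1.87 to 2.80 in the other alternatives run. The OCT share was 1.61% within 50 bp. Genes with 3 or more members numbered 66 in lists of equal length, 56 beyond 10 kb, 241 with protein-coding starts alone, and 147 to 307 with 1 library left out. At a −log10 q of at least 5 the count was 2618, of which 1825 were members; scaled to the lowest background it was 2490.

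The share of shared distal regions within 50 kb of a member called higher was 39.4% without centring, 7.63% by the rank of the fold (6.15% of all shared distal regions), and 5.69% (without HADA 2) to 26.8% (without control 1) with 1 library left out. The near-zero median over all shared regions changed sign, to 0.35 without centring, 0.052 by rank, 0.024 for single-copy regions, and -0.098 to 0.021 with 1 library left out. The cause was not tested. Whether the samples were paired is not known. Same-numbered libraries had correlations of deviations of -0.10, 0.09 and -0.38. HADA 1 with control 3, HADA 2 with control 1 and HADA 3 with control 2 had 0.49, 0.16 and 0.45. HADA 1 with control 2, HADA 2 with control 3 and HADA 3 with control 1 had -0.47, -0.19 and -0.02. These values cannot decide whether libraries shared a batch. With the replicate number as a block, 20.01% of regions near members were called higher. Total reads, which would limit what each list could hold, are unknown.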
